A study of Homo sapiens with 3 samples.

Results

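The genes described are those of NRF2 and the antioxidant response: NFE2L2, KEAP1, HMOX1, NQO1, TXNRD1, SRXN1, GCLC, GCLM and FTH1. They were chosen by gene symbol, with earlier results of these data known, and every probe that the platform annotation assigns to them was read. Of these 9 genes 8 were measured, by 14 probes of 47231 on the array. They are 8 of 20039 genes with a named probe. FTH1, the heavy chain of ferritin, was not analysed here, because no probe carries its symbol in the annotation used. The cells were MDA-MB-231, an established human breast carcinoma line that grew from a pleural effusion and that the series describes as deficient in ASS1, argininosuccinate synthase. One array each was hybridised with total RNA of untreated cells kept for 48 h, of cells treated for 48 h with ADI-PEG20 (0.3 µg/ml), and of cells treated for 24 h with ADI-PEG20 and for the next 24 h with L-arginine (420 µg/ml). The label of the last sample gives the ADI-PEG20 dose as 0.3 with an incomplete unit. ADI-PEG20 is a pegylated arginine deiminase, which breaks down extracellular arginine. Medium with fetal bovine serum was common to all 3 cultures. With 1 array a condition there is no spread between replicates and no test: each difference is between arrays, and a condition cannot be told apart from its culture.

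NRF2, the product of NFE2L2, is a transcription factor that KEAP1 holds in the cytoplasm and marks for degradation by a CUL3 ubiquitin ligase. Oxidants and electrophiles modify KEAP1, NRF2 then builds up in the nucleus, pairs with small MAF proteins and binds antioxidant response elements beside genes of glutathione synthesis, thioredoxin reduction, quinone reduction and heme breakdown. NRF2 is known to be controlled in large part through its protein, which arrays of RNA do not measure.

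The sequences below show where the best known binding motif of this pathway lies near the start sites of those genes for which a window was given. The antioxidant response element core was searched as TGACNNNGC on both strands, the other strand reading GCNNNGTCA, in RefSeq promoter windows of build GRCh38.p14 that run from 250 bases before to 50 after a start site. Windows were given for 7 of the 9 genes, matched by symbol, and numbered 10, since some genes have more than 1 start site. HMOX1 and FTH1 had no window, so neither was searched. Of these, 4 windows held the core, in TXNRD1, GCLM and KEAP1, against 13.3% of all 35116 windows. No core letters lay in the windows of NFE2L2, NQO1, SRXN1 or GCLC. Capitals mark the core, and the lower-case letters are the rest of the window, 5′ to 3′ on the gene's strand.
TXNRD1, chr12:104215529-104215828, plus strand: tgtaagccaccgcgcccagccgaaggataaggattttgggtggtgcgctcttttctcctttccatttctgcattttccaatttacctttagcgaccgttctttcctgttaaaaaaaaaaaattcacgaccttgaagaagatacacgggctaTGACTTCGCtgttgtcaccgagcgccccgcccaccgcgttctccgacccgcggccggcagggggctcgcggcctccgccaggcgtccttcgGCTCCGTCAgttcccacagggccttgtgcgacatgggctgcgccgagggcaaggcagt
TXNRD1, chr12:104286782-104287081, plus strand: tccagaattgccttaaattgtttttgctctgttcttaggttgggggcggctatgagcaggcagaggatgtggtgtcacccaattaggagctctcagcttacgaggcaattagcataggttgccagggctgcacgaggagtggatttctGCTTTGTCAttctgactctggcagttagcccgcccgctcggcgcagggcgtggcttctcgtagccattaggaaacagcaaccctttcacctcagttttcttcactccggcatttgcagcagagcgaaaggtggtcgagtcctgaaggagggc
GCLM, chr1:93909381-93909680, minus strand: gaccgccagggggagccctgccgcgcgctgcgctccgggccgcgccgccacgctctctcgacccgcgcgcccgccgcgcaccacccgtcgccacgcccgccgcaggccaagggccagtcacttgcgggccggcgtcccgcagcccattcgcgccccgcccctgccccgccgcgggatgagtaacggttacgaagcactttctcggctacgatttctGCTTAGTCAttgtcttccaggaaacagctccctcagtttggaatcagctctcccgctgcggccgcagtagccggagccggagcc
KEAP1, chr19:10502722-10503021, minus strand: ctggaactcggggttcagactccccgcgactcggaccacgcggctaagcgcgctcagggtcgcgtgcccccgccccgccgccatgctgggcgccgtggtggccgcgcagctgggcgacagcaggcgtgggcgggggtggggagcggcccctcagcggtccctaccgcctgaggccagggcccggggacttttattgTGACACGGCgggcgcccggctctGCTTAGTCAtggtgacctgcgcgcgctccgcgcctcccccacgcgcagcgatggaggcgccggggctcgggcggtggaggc
The GCLM match began 34 bases before the start site and that in KEAP1 nearest its start 31 bases before, and both read GCTTAGTCA. The matches in TXNRD1 read TGACTTCGC and GCTCCGTCA in the window of one start site, of which the second began 8 bases before the start, and GCTTTGTCA in that of the other. A second motif, TGATGNAA with its reverse TTNCATCA, the core of C/EBP-ATF response elements, was in 3.62% of all windows and in 0 of the 10. A match is a description of letters and not of binding, and other elements may lie outside these windows.

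The first comparison set ADI-PEG20 for 48 h beside untreated cells. All 8 measured genes were higher on the ADI-PEG20 array by their brightest probe. HMOX1, GCLC and TXNRD1 were past 1.5-fold, and HMOX1 alone was past 2-fold. Differences are given as log2 of background-corrected intensity, ADI-PEG20 minus untreated. Their median over the 8 genes was 0.39, with a range from 0.27 to 1.12, beside a median of 0.00 over all 11104 genes above background on either array. A difference above 0 was found in 49.6% of those genes, one past 1.5-fold upward in 7.93%, and one past 2-fold upward in 1.74%. The probe error was 0.22 over 2598 genes. It is the SD of the gap between the differences given by the 2 brightest probes of a gene, divided by the square root of 2. All 8 differences by brightest probe exceeded it. The share of all genes that did so was not counted. It was at least 25.1%, the genes with a higher difference than NQO1, the lowest of the 8. The SD of the differences over all genes was 0.46, so exceeding the probe error is not particular to these genes. The probe error covers probes on these arrays and not cultures. In bulk RNA, fewer cells of a type and less RNA per cell cannot be told apart.

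**Figure D1:**
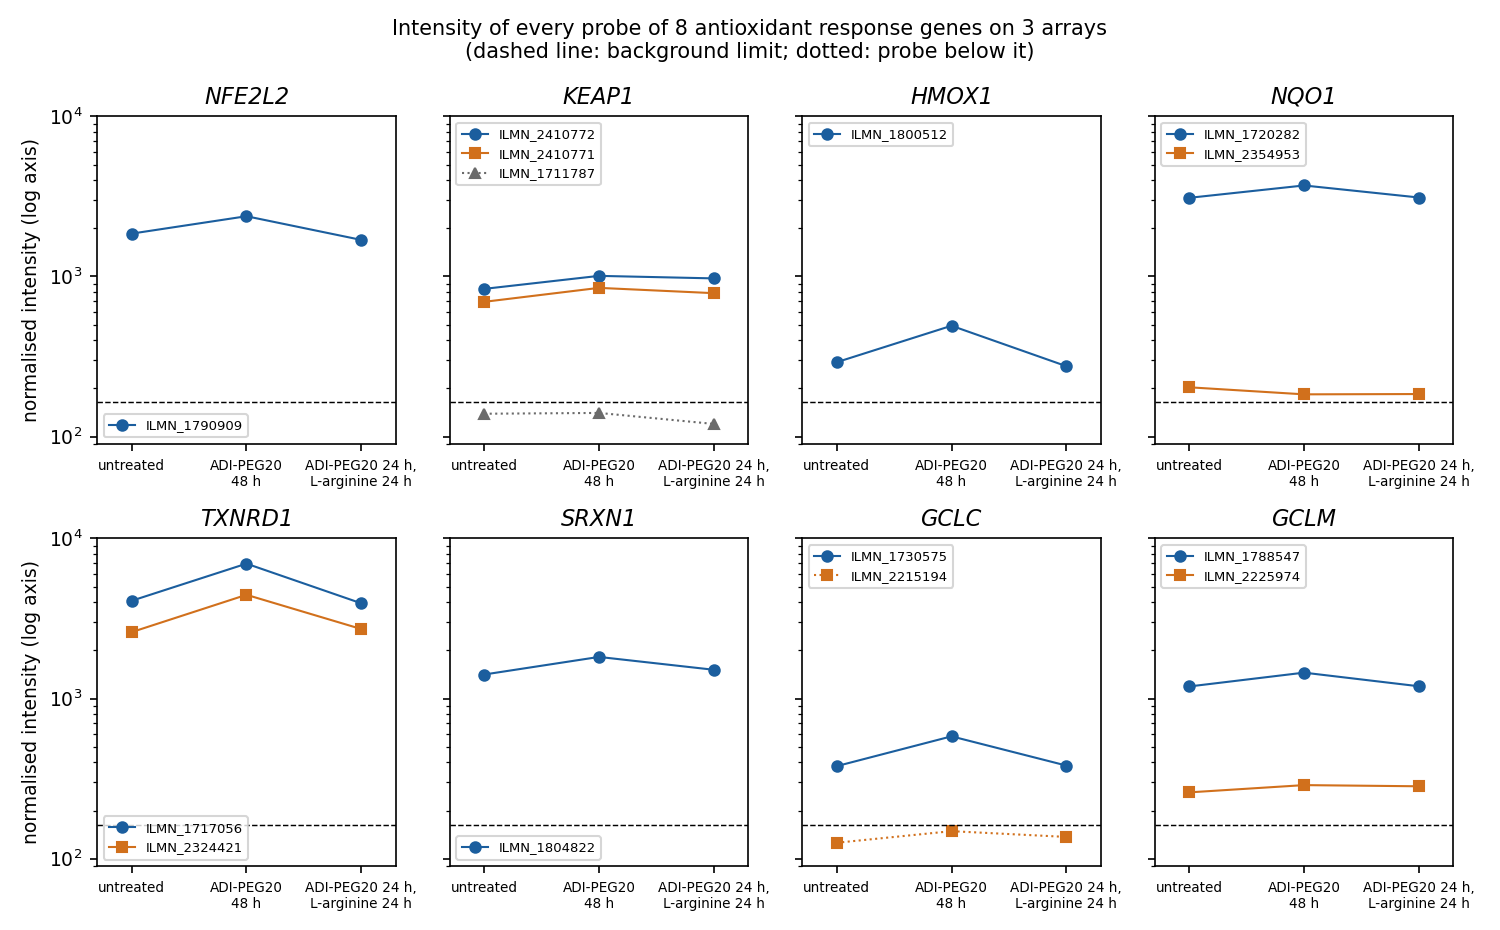
Normalised intensity (log axis) of each of the 14 probes, 1 panel per gene, on the untreated, ADI-PEG20 and L-arginine arrays, with 1 point per array and the background limit of 164 as a dashed line. The brightest probe of each of the 8 genes is highest on the ADI-PEG20 array, and 2 dotted probes, of KEAP1 and GCLC, lie below the limit throughout.

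The regulators come first. NFE2L2, which encodes NRF2 itself, had 1 probe (ILMN_1790909) that read 1852 on the untreated array, 2377 on the ADI-PEG20 array and 1691 on the L-arginine array. The ADI-PEG20 array was the highest and the L-arginine array the lowest. The difference under ADI-PEG20 was 0.38, or 1.304-fold, above that of 82.6% of all genes. KEAP1, the inhibitor of NRF2, read 837 on the untreated array, 1009 on the ADI-PEG20 array and 973 on the L-arginine array on its brightest probe (ILMN_2410772). Its second probe (ILMN_2410771) read 694, 849 and 787 in the same order. On both probes the untreated array was the lowest and both treated arrays lay above it. The differences under ADI-PEG20 were 0.31 and 0.34 on these probes. The remaining KEAP1 probe was below the background limit on all 3 arrays. The transcripts of the activator and of its inhibitor were thus both higher under ADI-PEG20, each by less than 1.5-fold.

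HMOX1 encodes heme oxygenase 1, the inducible enzyme that splits heme into biliverdin, iron and carbon monoxide. Its only probe (ILMN_1800512) read 292 on the untreated array, 492 on the ADI-PEG20 array and 275 on the L-arginine array. The ADI-PEG20 array stood above both others, which lay close together. The difference of 1.12 corresponds to 2.18-fold after background correction, and 1.13% of all genes had a higher one. The intensity is not far above the background limit of 164, so its size depends on the correction: without correction the ratio was 1.69-fold, short of 2-fold. No second probe was there to check it.

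GCLC and GCLM encode the catalytic and modifier subunits of glutamate-cysteine ligase, the first and rate-limiting enzyme of glutathione synthesis. GCLC read 379 on the untreated array, 581 on the ADI-PEG20 array and 382 on the L-arginine array (ILMN_1730575). Untreated and L-arginine arrays were nearly equal and the ADI-PEG20 array was above them, by 0.84 on the log2 scale or 1.79-fold. A second GCLC probe was below the limit on all 3 arrays. GCLM read 1190.1 untreated, 1452 with ADI-PEG20 and 1193 with L-arginine on its brightest probe (ILMN_1788547), a difference of 0.32. Its dimmer probe (ILMN_2225974) read 260, 288 and 283, a difference of 0.27. Both subunits were higher, and the catalytic subunit differed by more on the log2 scale: 0.84 against 0.32. Whether these 2 differences differ from each other was not tested, as no replicate exists.

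TXNRD1, cytosolic thioredoxin reductase, returns oxidised thioredoxin to its reduced form with NADPH. It read 4079 on the untreated array, 6956 on the ADI-PEG20 array and 3933 on the L-arginine array (ILMN_1717056). A second probe (ILMN_2324421) read 2599, 4445 and 2717. The ADI-PEG20 array was the highest on both probes, by 0.79 and 0.80, and the other arrays were close to each other. Both probes lie far above background, where the correction matters little: the brighter one was 1.71-fold higher without it and 1.73-fold with it. Of the 3 genes past 1.5-fold, TXNRD1 was the only one with 2 probes above background. SRXN1, sulfiredoxin, which repairs overoxidised peroxiredoxins, read 1413, 1820 and 1513 on untreated, ADI-PEG20 and L-arginine arrays (ILMN_1804822), a difference of 0.39 under ADI-PEG20. 

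NQO1, the quinone reductase that is often used as a marker of NRF2 activity, gave probes that disagreed. The brightest (ILMN_1720282) read 3098 on the untreated array, 3699.7 on the ADI-PEG20 array and 3112 on the L-arginine array, a difference of 0.27 and the lowest of the 8. The other probe (ILMN_2354953) read 203, 184 and 184, near the background limit, a difference of -0.39. The direction of NQO1 thus rests on the brighter probe, and the mean of both was -0.06. Of the 12 probes of the group above background on all 3 arrays, 11 were highest on the ADI-PEG20 array, the dim NQO1 probe being the exception. By brightest probes this held for 8 of 8 genes, all above background on all 3 arrays, against 40.6% of the 11404 genes above background on any array. As the 8 genes were chosen with earlier results of these data known, this comparison is a description only.

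**Figure D2:**
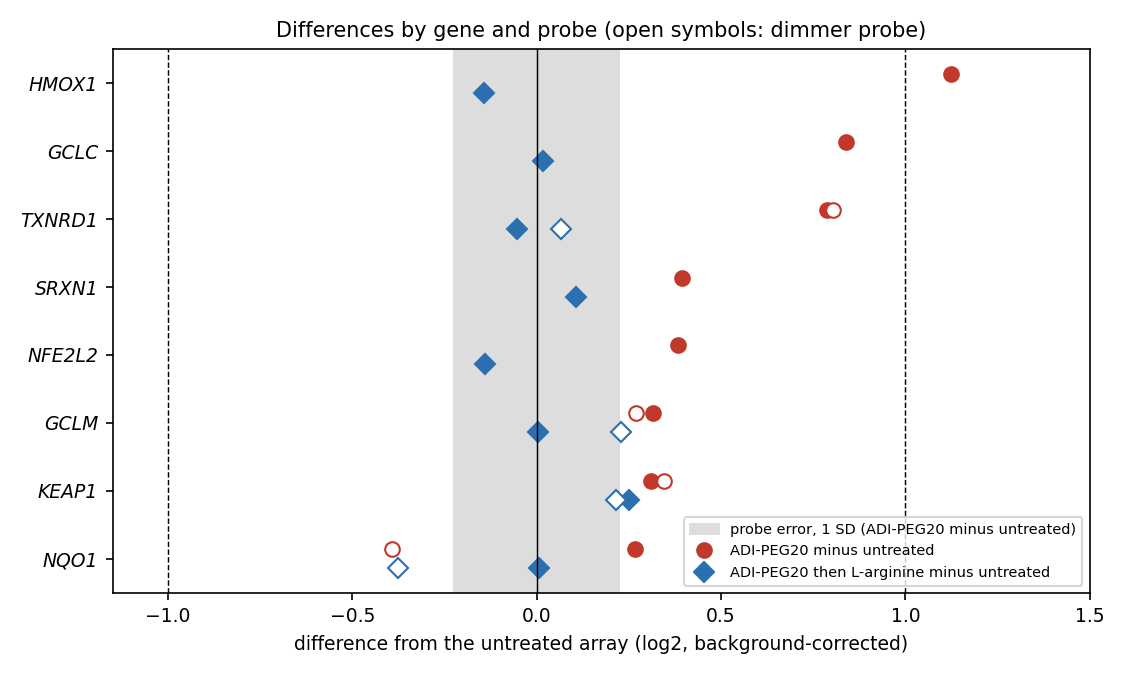
Differences from the untreated array (log2, background-corrected) for each gene, as circles for ADI-PEG20 and diamonds for ADI-PEG20 then L-arginine, filled for the brightest probe and open for a dimmer probe above background on all arrays. The grey band is the probe error of 0.22 on either side of 0 and dashed lines mark 2-fold. The filled circles run from 0.27 (NQO1) to 1.12 (HMOX1), while all filled diamonds lie between -0.14 and 0.25.

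The second comparison set cells that had 24 h of ADI-PEG20 and then 24 h of L-arginine beside untreated cells. None of the 8 genes was past 1.5-fold, which 2.59% of 11045 genes passed upward and 2.63% downward. The median difference was 0.01, with 5 genes higher and 3 lower, beside 48.6% of all genes higher, 51.3% lower and a median of -0.01. Over all genes the SD of the differences in this comparison was 0.28. For 7 of 8 genes the difference was smaller than the probe error of this comparison, 0.19. The exception was KEAP1, at 0.25 on the brightest probe and 0.22 on the second. The share of all genes within the probe error was not counted. Of all genes 25.7% lay below HMOX1, the lowest of the 8, and 13.7% above KEAP1, the highest. Most genes thus lay in the same range as the 8. NFE2L2 and HMOX1 were both at -0.14, TXNRD1 at -0.05, GCLM at 0.00, NQO1 at 0.01, GCLC at 0.02 and SRXN1 at 0.11. The dimmer probe of GCLM stood at 0.23, apart from its brighter one, and that of TXNRD1 at 0.07, opposite in sign to its brighter one. The dimmer probe of NQO1 was at -0.38, past the probe error, and the mean of both NQO1 probes was -0.18. 

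Set directly against ADI-PEG20 for 48 h, the L-arginine array was lower for all 8 genes by their brightest probes, with a median of -0.42. A difference below 0 was found in 50.1% of 11085 genes. HMOX1 was lower by more than 2-fold, at -1.27, as were 1.88% of all genes, but at -0.84 without background correction, short of 2-fold. TXNRD1 at -0.84 and GCLC at -0.82 were past 1.5-fold, which 8.87% of all genes were downward. NFE2L2 was at -0.52, GCLM at -0.31, SRXN1 at -0.29 and NQO1 at -0.26. The dimmer probes of GCLM and NQO1 were at -0.04 and 0.02, and the means over probes at -0.18 and -0.12. KEAP1 was at -0.06, within the probe error of 0.22, and at -0.13 on its second probe. This comparison shares its arrays with the first and second, so the 3 sets of differences are not separate observations. The L-arginine cells had also been given ADI-PEG20 for 24 h and not 48 h, so the return of arginine and the shorter exposure cannot be told apart.

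**Figure D3:**
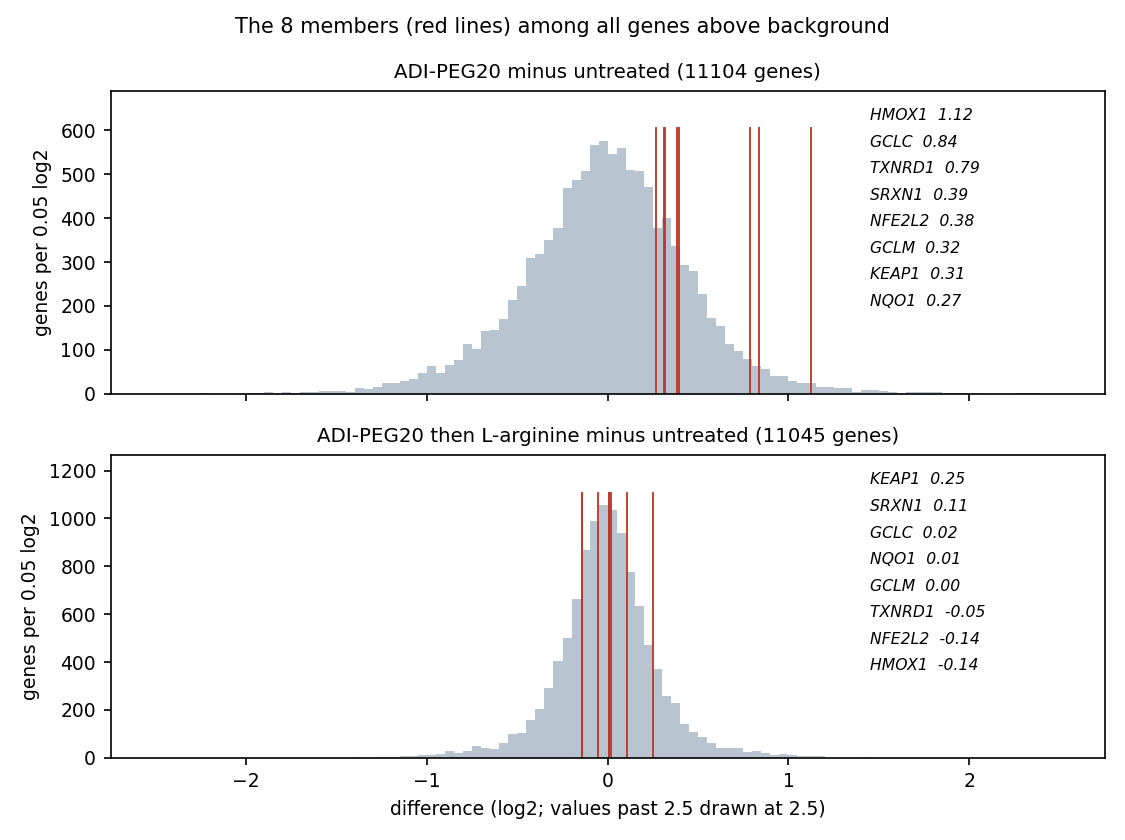
Histograms of the difference (log2, background-corrected) of all genes above background for ADI-PEG20 minus untreated (11104 genes) and ADI-PEG20 then L-arginine minus untreated (11045 genes), with the 8 genes as red lines and their values printed. In the upper panel all red lines, drawn for brightest probes, lie to the right of 0, with HMOX1, GCLC and TXNRD1 in the upper tail. In the lower panel they lie between -0.14 and 0.25 and within the body of the histogram.

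Other genes of the pathway were read from 4 lists. Of 12 regulators and partners of NRF2, 11 had a probe and 9 were above background. Of these 9, 5 were higher and 4 lower under ADI-PEG20, with 1 past 1.5-fold upward and a median of 0.10. Of all genes 49.6% were higher and 7.93% were past 1.5-fold upward. With members below background included the median was -0.11, and with probes of a gene averaged it was 0.32, so the list had no settled direction. MAFF, a small MAF protein that pairs with NRF2, read 349.7, 562 and 391 on untreated, ADI-PEG20 and L-arginine arrays. Its difference under ADI-PEG20 was 0.95, and 0.87 on a second probe, while the dimmest, at the background limit, gave -0.01. NFE2L3, a factor related to NRF2, was at -0.51 and GSK3B, a kinase that promotes NRF2 degradation, at -0.47. The probes of CUL3, the ligase scaffold, and BACH1, the repressor that competes with NRF2 at HMOX1, were below background on all arrays. SQSTM1, the autophagy receptor that binds KEAP1, was at 0.36.

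Of 30 further genes known as NRF2 targets, 27 had a probe and 23 were above background on either array. Under ADI-PEG20 13 were higher and 10 lower, with 2 past 1.5-fold upward and 2 downward. SLC7A11, 1 of the 2 upward, entered only because it was above background on the ADI-PEG20 array. The median was 0.19, or 0.17 over genes above background on both arrays, or 0.08 with members below background included. Of all genes 7.93% were past 1.5-fold upward and 9.31% downward. This list thus did not share the single direction that the 8 genes had by their brightest probes. The 8 genes and the lists were chosen with earlier results of these data known, and whether they differ was not tested. SLC7A11, the cystine-glutamate exchanger that supplies cysteine for glutathione, read 142 on the untreated and 141 on the L-arginine array, both below background, and 215 with ADI-PEG20. After background correction it was at least 2.21-fold higher under ADI-PEG20 than in untreated cells, while the uncorrected ratio was 1.51-fold. The first is a bound on the corrected scale, in which the dimmer array counts as the lowest signal that clears its background limit. ABCC3, an export pump, was at 0.69. In the other direction stood the carbonyl reductase gene CBR3 at -0.88, with intensities of 811, 497 and 778, and PIR, pirin, at -0.62 and -0.48 on its probes. In the pentose phosphate pathway, which regenerates NADPH, PGD was at 0.22, TKT at 0.24 and TALDO1 at -0.02. The AKR1C genes are near-identical copies whose probes may cross-hybridise, and they are not described singly here. AKR1C2 and AKR1C3, which went in opposite directions, are still counted in the list.

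Enzymes that handle oxidants but are less tied to NRF2 had a median of -0.07 over 23 of 27 genes, with 9 higher and 14 lower, beside 50.3% of all genes lower. CAT, catalase, which splits hydrogen peroxide, was lower: 1055 untreated, 582 with ADI-PEG20 and 897 with L-arginine. Its difference of -1.02 was past 2-fold, as were 2.13% of all genes downward, and a second probe gave -0.76. Without background correction the ratio of the brighter probe was 0.551, short of 2-fold. SOD2, mitochondrial superoxide dismutase, was at 0.38, and at 0.03 on a second probe, and the methionine sulfoxide reductase gene MSRB1 at -0.37. Heme and iron genes had a median of -0.01 over 19 of 21 genes, with 9 higher and 10 lower. ALAS1 and ALAD, the early enzymes of heme synthesis, were both lower. ALAD was at -0.75 on its brightest probe, and its dimmer probes were below background on the untreated and ADI-PEG20 arrays. ALAS1, the rate-limiting enzyme, was at -0.71, with -0.63 on its second probe, although the ALAS1 intensities of 247 (untreated) and 198 (ADI-PEG20) are near background. PPOX, which acts later in heme synthesis, was at 0.45 and HMOX2, the constitutive heme oxygenase, at 0.06. FTL, the ferritin light chain, was at -0.10 on its brightest probe, at an untreated intensity of 26800.5, where the maximum of the array was 28717. A probe of FTH1P3, a pseudogene of FTH1, read 1187 untreated, 2399.7 with ADI-PEG20 and 1619 with L-arginine. It was chosen after its values were seen. Whether it reads FTH1 transcripts was not tested.

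**Figure D4:**
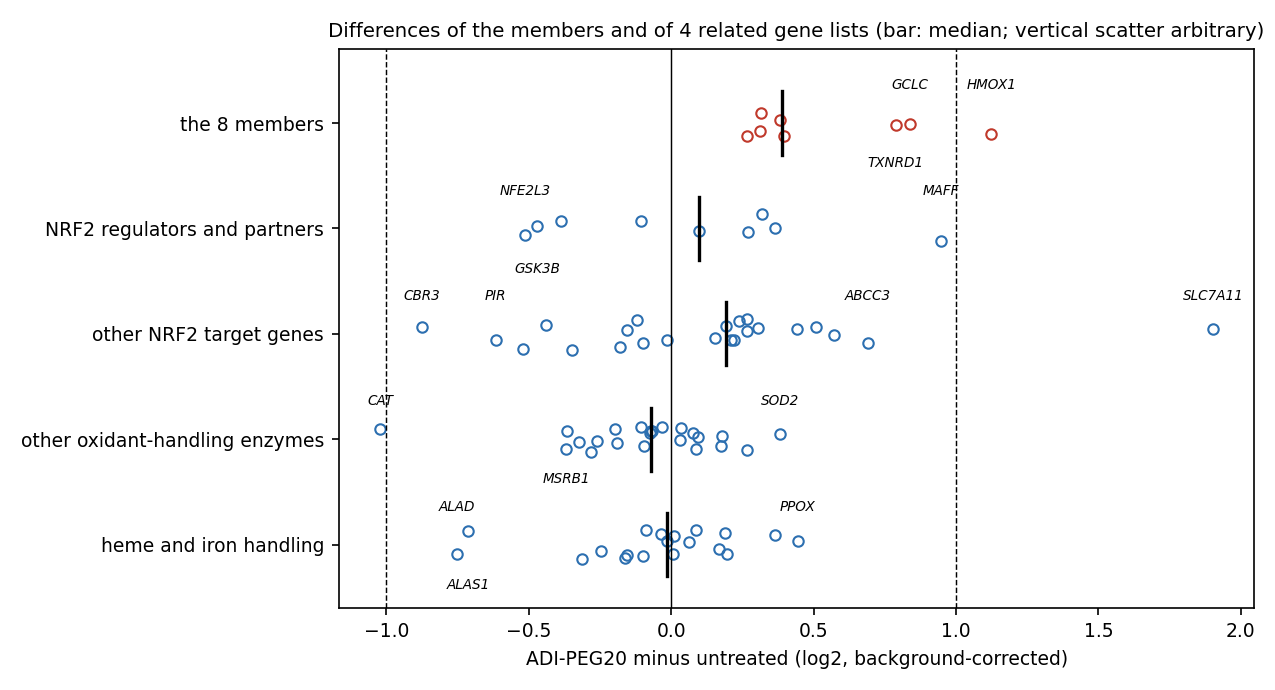
Difference under ADI-PEG20 from untreated (log2, background-corrected) of the 8 genes and of 4 related lists, 1 open circle per gene above background on any array, with a bar at each median and dashed lines at 2-fold. By their brightest probes the 8 genes all lie to the right of 0, while each related list spreads to both sides. The dimmer NQO1 probe, at -0.39, is not drawn. SLC7A11 is drawn at its measured value, although its untreated intensity was below background.

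The genes whose pattern over the 3 arrays was most like that of a gene in the group were found by the distance between their pairs of differences from untreated, over 9818 other genes above background on all arrays. For HMOX1 the nearest were CEBPG, at a distance of 0.01, HSPBAP1 at 0.06 and RRN3 at 0.06, and 37 genes lay within 0.2. CEBPG read 724, 1427 and 667 on untreated, ADI-PEG20 and L-arginine arrays. For GCLC the nearest were NOP16 at 0.01, TARS1 at 0.01 and DNAJC19 at 0.02, and 150 genes lay within 0.2. The likeness is a description over 3 arrays.

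The labelled cell line was set against markers. Of 6 markers of mesenchymal-like breast lines, VIM, CD44, CAV1, AXL and LGALS1 were above background on all 3 arrays and SPARC on none. Their summed corrected intensity was 63721 untreated, 54428 with ADI-PEG20 and 60616 with L-arginine. Of 7 luminal markers ESR1, PGR and TFF1 were on none, CDH1, EPCAM and ERBB3 on all 3, and GATA3 on the ADI-PEG20 array alone. CDH1 was at 1.03, EPCAM at 0.62 and ERBB3 at -0.36 under ADI-PEG20, and the summed corrected intensity of the luminal list was 1059.9 untreated, 1674 with ADI-PEG20 and 1095 with L-arginine. The part of these markers in the differences above was not tested. Of 4 leukocyte markers with a probe, PTPRC, CD3E and LYZ were not above background on any array, and CD14 was on all 3.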

How the data were processed

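Biotinylated cRNA from total RNA was hybridised to 1-colour Illumina bead arrays, 1 per condition, per the labels' protocols. Samples were grouped by their treatment labels. The authors deposited probe intensity on a linear scale. The submitters' processing notes name GenomeStudio. Its version and the normalization steps are not given in these sources. All 3 columns had the same minimum, 106, the same maximum, 28717, and medians of 149, as quantile normalization would give, so a change in total RNA per cell cannot be seen. By their range the values are linear and uncentred. The other deposited table, of non-normalized values, was not used: its 6 columns of values match no single sample label.

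Intensities were corrected by normexp (Python 3.11.15, scipy 1.17.1), with the background at the mode of 137.1, a background SD of 8.82 and an exponential mean of 425, and then log2 was taken after adding an offset of 16. A probe was above background past 3 SDs, a limit of 164, which 37.9% of probes passed on each array. Of the probes 30113 had 1 gene in the platform annotation, 8 several and 17110 none listed. Symbols were updated through the gene identifier. A gene's value is that of its brightest probe, and it entered a comparison if above background on either array. Differences were counted past 2-fold and 1.5-fold, with no test. The design had planned neqc as an alternative on the second table. The steps were tested on simulated data with known folds. These were set only on probes with more corrected signal than HMOX1 had on the untreated array, so folds of dimmer probes were not covered. The number of arrays limits the precision.

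The text names all probes of the chosen genes, and of each of the 4 other lists the 3 genes with the largest difference under ADI-PEG20 and any whose bound passes 2-fold. It also names the 3 genes of most alike pattern for the 2 genes that differed most. SQSTM1, CUL3, BACH1, PGD, TKT, TALDO1, AKR1C2, AKR1C3, HMOX2, FTL, FTH1P3 and the cell type markers were named outside that rule. The genes and lists were chosen with earlier results of these data known. Promoter sequences and their coordinates are from RefSeq, build GRCh38.p14. No coordinates are given for genes or probes, since neither the labels nor the deposited files name a build.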

Additional observations from a re-analysis of the deposited data

How the results depend on the processing

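No paired analysis was possible because each condition has 1 array, and for the same reason no array could be left out. Over 6 alternative settings the median of the 8 genes stayed between 0.36 and 0.39 under ADI-PEG20, at 0.01 after L-arginine, and between -0.42 and -0.39 for L-arginine against ADI-PEG20. Taking the mean over a gene's probes is the one setting that could turn the sign of a single gene, since the others keep the order of a probe's values or apply filters that all 8 genes pass. It turned 1 of 8 genes under ADI-PEG20, NQO1 to -0.06, and 2 after L-arginine, NQO1 to -0.18 and TXNRD1 to 0.01, and 0 for L-arginine against ADI-PEG20. Of the 8 genes 4 had a second probe that could change the value.

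Without background correction HMOX1 was at 0.76 under ADI-PEG20 and at -0.84 for L-arginine against ADI-PEG20, so that 0 of the 8 genes passed 2-fold in either comparison. With an offset of 50 the number under ADI-PEG20 was 0 too, with HMOX1 at 0.99. Both settings compress low intensities by construction. The counts over all genes, both directions together, were 429, 76 and 435 past 2-fold and 1914, 577 and 2077 past 1.5-fold, for ADI-PEG20 against untreated, L-arginine against untreated and L-arginine against ADI-PEG20. Without correction they were 102, 0 and 106 past 2-fold and 569, 5 and 615 past 1.5-fold. With an offset of 50 they were 189, 2 and 193, and 1040, 69 and 1133. With the stricter filter of both arrays above background 279, 3 and 285 passed 2-fold, and 152 passed 1.5-fold after L-arginine. There a background SD 1.5 times as large gave 23 past 2-fold, and no filter gave 984 past 1.5-fold. The neqc alternative was not run, since its table could not be tied to samples.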
